A study of Arabidopsis thaliana with 4 samples.

Results

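Among 30361 gene loci measured in Arabidopsis thaliana, 106 stood at an intensity of 1000 or more with solvent alone and at no more than 50% of that level in every one of 3 arrays from plants exposed to (E)-2-hexenal vapour. These 106 loci were chosen by the deposited intensities themselves, so their lower level after hexenal is the selection and not a finding, and no test of it is given. Of 14903 loci with a control intensity of 1000 or more, 113 (0.758%) were halved in all 3 hexenal arrays. The rule left out 7 of the 113, most of them auxin-responsive SAUR genes. By the mirror-image rule, 312 of the same 14903 loci (2.09%) were at least doubled in all 3 arrays.

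All plants were wild type Columbia-0, grown on peat pellets in a light and dark cycle. In the control group (1 array), plants were closed for 30 min in a box with acetonitrile, the solvent. In the hexenal group (3 arrays, labelled biological replicates), the box held (E)-2-hexenal in acetonitrile, at a stated 10 µM, for the same time. Each RNA came from several pooled plants, and the labels give no plant age. With 1 control array, the spread between control samples is unknown, and having 4 arrays limits how precise any value can be. Fewer cells of a type and less RNA per cell cannot be told apart in whole-plant RNA.

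(E)-2-Hexenal is a reactive aldehyde that damaged leaves release. Transcripts can drop within a short time only where their RNA turns over quickly, and in plants short-lived RNAs are common among hormone response genes, transcription factors and regulators of growth. Plant cells expand when auxin, brassinosteroid and gibberellin signalling favour loosening of the wall, while cytokinin acts on division and shoot growth, and light receptors restrain elongation. The outer face of the shoot is sealed by cutin and wax, and suberin seals root tissues.

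The 106 loci had a median control intensity of 2978, against 3732 for all loci at 1000 or more. Control levels ran from 1013 to 17446, and 12 members were above 7944, the level that marks the brightest 10th of all loci. After hexenal the median intensity of the members was 887 in array 1, 909 in array 2 and 1033 in array 3. The highest member was at 7628, 6506 and 7109 in these arrays, and in 36 members all 3 hexenal values remained at 1000 or more. In 45 members all 3 were under the median intensity of the array, which was 982, 968 and 936 in arrays 1, 2 and 3 and 941 in the control.

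Differences below are log2 intensity of hexenal minus control, as the mean over the 3 hexenal arrays ± SD (n = 3, 1 control array), on the deposited scale, and hexenal intensities are given in the order of arrays 1, 2 and 3. Over the members the differences ran from -3.24 to -1.08 with a median of -1.60. The median of all loci at 1000 or more was -0.04. On average 24 members were at least 4-fold lower, and 8 members were at 25% of the control or less in every array.

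**Figure D1:**
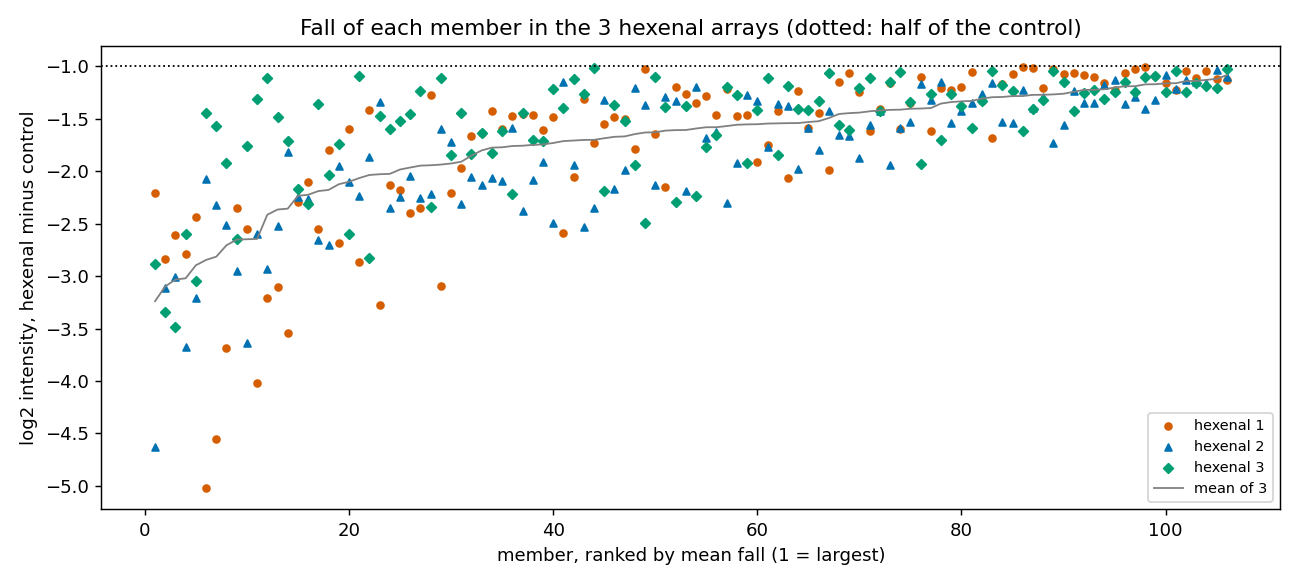
Log2 intensity of hexenal minus control (y axis) for each of the 106 members, ranked by the mean difference (x axis), with a symbol for each hexenal array and a grey line for the mean of the 3. All points lie at or below the dotted line at 50% of the control because the rule requires it, and the arrays lie farthest apart among the members with the largest falls, where array 1 reaches the lowest values.

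Hexenal arrays differed in how many loci they showed at 50% of the control or less. Among loci at 1000 or more, outside those the rule names as left out, 1581 were halved in array 1, 727 in array 2 and 319 in array 3. Arrays 1 and 2 together had 477 halved loci, of which 106 (22.2%) were halved in array 3 too and are the members. The other 371 loci had a median level in array 3 of 78.7% of the control, and 361 of them were below the control there. The size of the group depended most on array 3: without it the rule returns 477 loci, without array 1 it returns 160, and without array 2 it returns 133. Doubled loci numbered 488, 532 and 431 in the 3 arrays, and 312 were doubled in all of them. Over all loci at 1000 or more, the median absolute log2 difference from the control was 0.31, 0.33 and 0.24 in arrays 1, 2 and 3.

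**Figure D2:**
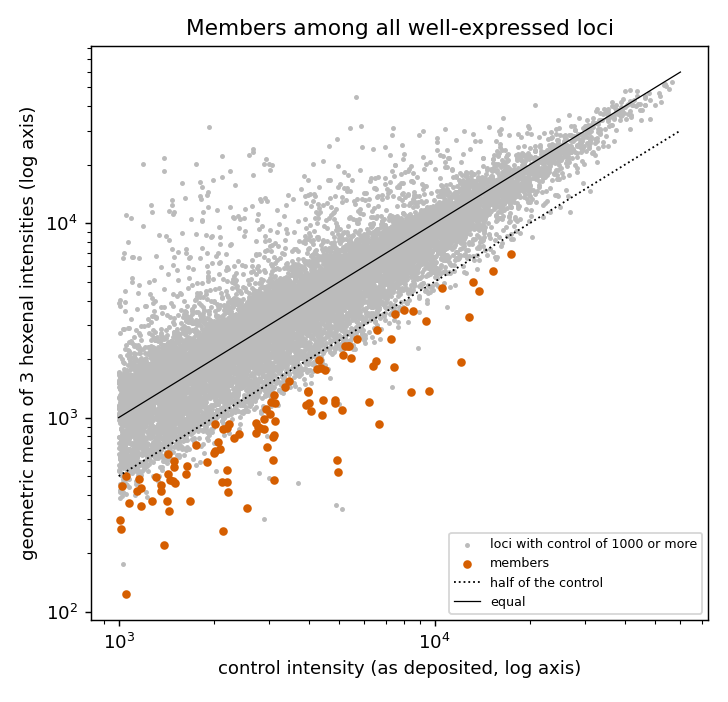
Control intensity (x axis, log scale) against the geometric mean of the 3 hexenal intensities (y axis, log scale) for all loci with a control intensity of 1000 or more, with the 106 members in orange. The members lie below the dotted line at 50% of the control across control levels from 1013 to 17446, and grey points below that line are loci that were left out by the rule or that had at least 1 array above 50%.

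In limma's test on quantile normalized values across all loci, 10 of 30361 loci (0.0329%) were called lower, at an adjusted p threshold of 0.05 with Benjamini-Hochberg adjustment and at least a 2-fold change, and 5 of the 10 are members: AT5G57760, MAKR6 (AT5G52900), SAUR75 (AT5G27780), ILL5 (AT1G51780) and AT5G01740. The fit uses the contrast that chose the members, so this count supports nothing further. The 5 called members were 0 without hexenal array 2, 9 without array 3 and 20 without array 1, and all loci called lower went from 10 to 0, 18 and 39. The 20 members with the tightest hexenal arrays, whose highest value was at most 1.2 times the lowest, had differences of -2.23 to -1.08.

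The genes were named through a reference gene table: 67 members had a gene name there and 39 had a locus code only. The 67 named genes were sorted by hand into 10 groups by their known roles. Counts were also made by 16 name patterns applied to all loci alike, where 1 locus can fall in several classes. The exception was the member FAR1 (AT5G22500), a fatty acid reductase gene, which was taken out of the light and shade class by hand. Outside the loci left out by the rule, the members made up 0.712% of all loci at 1000 or more. Of 86 such loci in the auxin class, 9 (10.5%) were members and 1 was doubled. In the class of brassinosteroid and gibberellin genes 3 of 44 (6.82%) were members, and 1 was doubled. The class of transcription factors held the most members, 15 of 400 (3.75%), and 26 of its loci were doubled (6.50%). Among light and shade genes 5 of 138 (3.62%) were members, among cytokinin and other hormone genes 3 of 94 (3.19%), and among lipid, wax and cutin genes 5 of 208 (2.40%). Cell wall genes had 4 of 220 (1.82%). By these patterns no member was in the classes of photosynthesis and chloroplast (264 loci), ribosome and translation (102), calcium and signalling (269) or peptides (58). At a share of 0.712%, classes of these sizes would hold few members in any case. The patterns also miss genes by name: APD7 (AT5G02760), a PP2C phosphatase, is a member that the calcium and signalling pattern did not match, although it covers phosphatases. Of the 269 calcium and signalling loci 12 (4.46%) were doubled. These shares describe the members as chosen and were not tested.

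**Figure D3:**
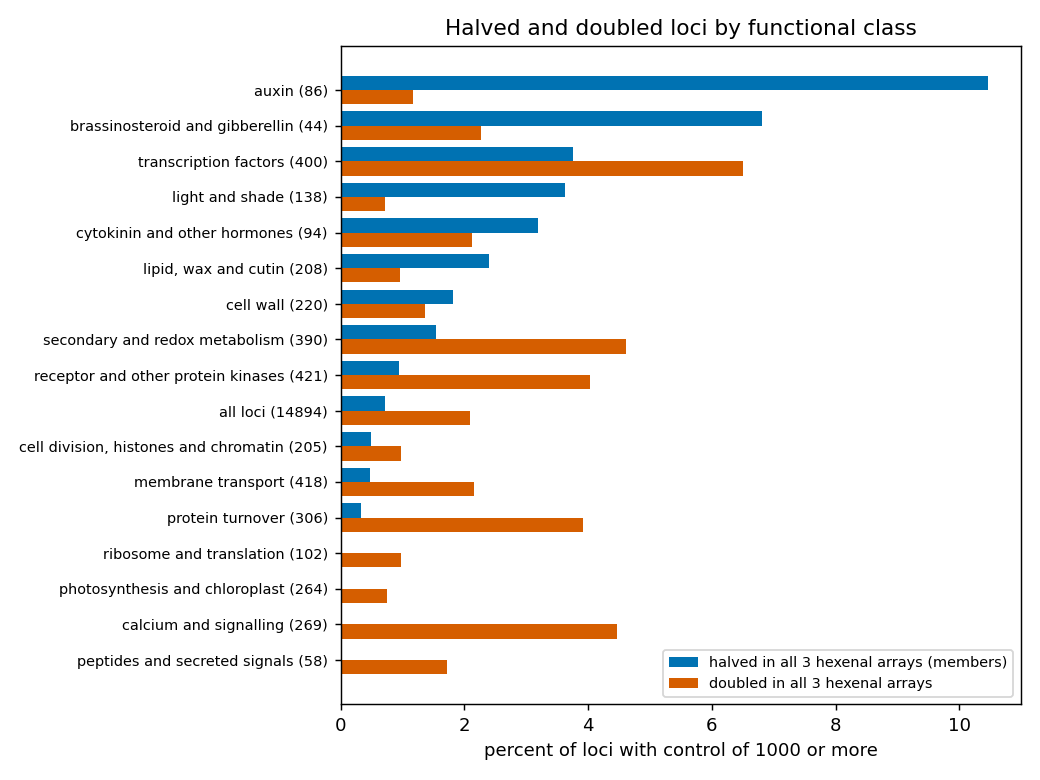
Share of the loci of each class with a control intensity of 1000 or more (x axis, percent) that were halved in all 3 hexenal arrays (blue, the members) or doubled in all 3 (orange), with the number of such loci in brackets. The auxin class had the highest share of members, 10.5%, against 0.712% of all loci, and the class of transcription factors had both halved (3.75%) and doubled loci (6.50%).

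Auxin genes among the members covered synthesis, conjugates, repressors and early response. SAUR75, of the SAUR family of small early auxin-response proteins that promote cell expansion, was at 1396 in the control and at 273, 180.1 and 223 after hexenal (-2.65 ± 0.30). SAUR50 (AT4G34760) went from 1425 to 589.6, 307 and 282 (-1.94 ± 0.58), and SAUR29 (AT3G03820) from 1174 to 496, 321 and 508 (-1.44 ± 0.37). SAUR50 was at about the same level in arrays 2 and 3 and higher in array 1, whereas SAUR29 was lowest in array 2. Apart from the clusters left out by the rule, 11 SAUR-named loci were at 1000 or more in the control. Of these 3 are members and none was doubled, 9 had a mean below the control, and their median difference was -0.82. Over all loci at 1000 or more, 54.6% had a mean below the control. Family counts and medians, here and below, include the members, which the rule places below the control. The families were also chosen with the members known. Near-identical SAUR copies may share probes, which was not tested.

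SHY2 (AT1G04240, also IAA3) and IAA6 (AT1G52830) encode Aux/IAA proteins, repressors of auxin-responsive transcription that are degraded when auxin is sensed. SHY2 was at 4005 in the control and at 1468, 772 and 1473 (-1.76 ± 0.54), and IAA6 at 1076 and at 464, 219 and 471 (-1.57 ± 0.63). In both genes array 2 was the lowest and arrays 1 and 3 lay close together. Of 13 Aux/IAA loci at 1000 or more these 2 are members, and the family's median difference was -0.17. The others ran from IAA2 at -0.68 to IAA16 at 0.77.

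YUC5 (AT5G43890), a flavin monooxygenase of auxin synthesis, stood at 1483 with solvent and at 429, 643 and 387 (-1.64 ± 0.39). ILL5 is related to the hydrolases that free auxin from amino acid conjugates. It had 2206 in the control and 451, 466 and 491 after hexenal (-2.23 ± 0.06), with almost no spread between the hexenal arrays. Of 5 loci with ILL or ILR1 names at 1000 or more it was the single member, and the other 4 lay between 0.06 and 0.27. Hydrolases under other names were not counted, and shared probes were not tested. ILR2 (AT3G18485), known from resistance to an auxin conjugate, was at 1058 and then 485, 495 and 520.4 (-1.08 ± 0.05), the smallest mean fall of all members. DFL2 (AT4G03400, GH3-10), of the GH3 family of amido synthetases, was bright at 9426 and went to 3869, 2936 and 2761 (-1.58 ± 0.26). HAT2 (AT5G47370), an auxin-inducible homeodomain-leucine zipper factor, had 1272 in the control and 419.8, 298 and 415 (-1.77 ± 0.28).

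Cytokinin genes were the next hormone group, with 5 members, and array 2 was the lowest in 4 of them. IPT1 (AT1G68460), an enzyme of cytokinin synthesis, was at 1013, the lowest control level among the members, and at 377, 242 and 286 (-1.77 ± 0.32). CRF2 (AT4G23750) and CRF5 (AT2G46310) encode AP2/ERF factors of the cytokinin response. CRF2 went from 6522 to 2144, 1729 and 1995 (-1.74 ± 0.16), and CRF5 from 2019 to 979.8, 907 and 888 (-1.13 ± 0.07). Of 8 CRF-named loci at 1000 or more, 7 had a mean below the control, among them the members CRF2 and CRF5. The median difference was -0.89, and CRF10 (-1.12) and CRF1 (-1.08) missed the rule. SOB5 (AT5G08150) and SOFL1 (AT1G26210) are related proteins that raise cytokinin levels when overproduced. SOB5 stood at 2806 and then at 994, 708 and 981 (-1.67 ± 0.28), and SOFL1 at 13217 and then at 5931, 3451 and 5965 (-1.41 ± 0.45). SOFL1 was among the 12 members above 7944 in the control.

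In the light group, PAR1 (AT2G42870) encodes a helix-loop-helix protein without DNA binding of its own that limits shade elongation. It was at 1684 in the control and at 483, 259 and 412 (-2.18 ± 0.47), lowest in array 2. PKS1 (AT2G02950), a phytochrome-associated protein that acts in phototropism, was at 4078 and then at 1042, 821 and 1500.5 (-1.91 ± 0.44). BBX14 (AT1G68520), a B-box zinc finger protein, had 12839 in the control and 2444, 3103 and 4703 (-1.96 ± 0.48), lowest in array 1 and highest in array 3. Of 17 BBX-named loci at 1000 or more BBX14 is the single member, 1 was doubled, and 11 had a mean below the control. The share below the control among all loci at 1000 or more was 54.6%, and the BBX median difference was -0.16. BBX15 was at -1.09 and BBX16 at 1.49.

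Gibberellin, brassinosteroid and jasmonate were represented by 4 members. GAI (AT1G14920), a DELLA repressor of gibberellin responses, was at 10584 and then at 5197, 4329 and 4456 (-1.19 ± 0.14), and the DELLA genes RGA1 and RGL1 were at -0.30 and -0.28. BR6OX2 (AT3G30180), the oxidase of the last step to brassinolide, went from 2726 to 809.8, 800.0 and 1259.9 (-1.54 ± 0.37). BRH1 (AT3G61460), a brassinosteroid-responsive RING protein gene, went from 5114 to 2277, 1771 and 2264 (-1.29 ± 0.21). JMT (AT1G19640), which makes methyl jasmonate from jasmonate, was at 2407 and then at 896, 939 and 671 (-1.54 ± 0.26). In these 4 genes the hexenal arrays stayed within a factor of 2 of each other.

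**Figure D4:**
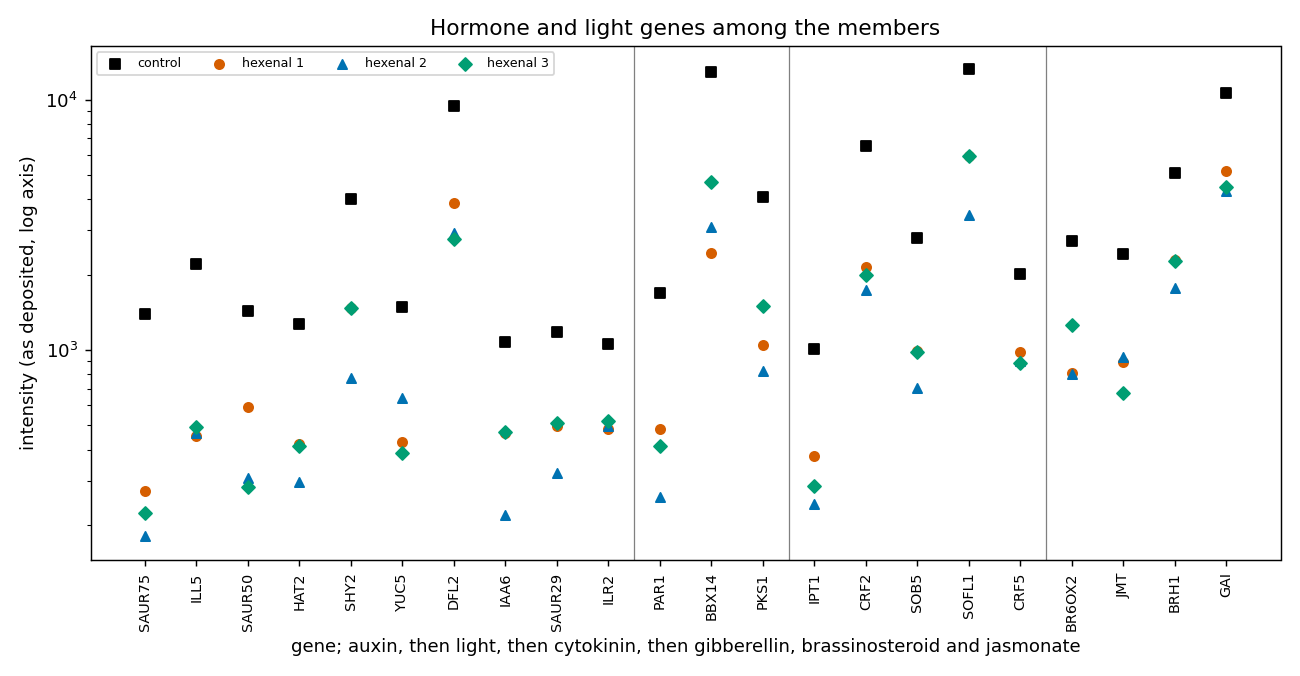
Deposited intensity (y axis, log scale) of the auxin, light, cytokinin, and gibberellin, brassinosteroid and jasmonate genes among the members (x axis, 22 genes), with black squares for the control array and coloured symbols for the 3 hexenal arrays. The control lies above all hexenal arrays for each gene by the rule, ILL5 and ILR2 have nearly coinciding hexenal values, and SHY2 and IAA6 are lowest in array 2.

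Cell wall genes had the largest median difference of the 10 groups sorted by hand, -2.06. They also had the widest spread between hexenal arrays, with a median SD of 0.68 against 0.33 over all members. These ranks rest on the sorting, which was done with values seen. The name pattern for cell wall genes held 4 of the 9 genes: XTH33, XTH15, AGP17 and EXPA1. XTH33 (AT1G10550) and XTH15 (AT4G14130) encode xyloglucan endotransglucosylase/hydrolases, enzymes that cut and rejoin the xyloglucan that tethers cellulose. XTH33 was at 4924 in the control and at 713, 386 and 813 (-3.02 ± 0.57), which is 8.11-fold lower. XTH15 went from 2889 to 1037, 512 and 1245 (-1.73 ± 0.68), and in both genes array 2 was the lowest. Of 19 XTH-named loci at 1000 or more, 14 had a mean below the control, none was doubled, and the median difference was -0.31. EXPA1 (AT1G69530), an expansin that loosens walls in acid conditions, was at 5664 and then at 2431, 2433 and 2755 (-1.16 ± 0.10), with close hexenal arrays. Of 11 alpha-expansin loci at 1000 or more 10 had a mean below the control, with a median of -0.42, and EXPA11 (-1.04) and EXPA9 (-1.01) came next after EXPA1. For comparison, 54.6% of all loci at 1000 or more had a mean below the control.

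PRX52 (AT5G05340), a class III peroxidase of the wall, showed the widest gap between hexenal arrays of all members. It was at 6666 in the control and at 205, 1586 and 2453 (-2.85 ± 1.91), so array 3 held 12.0 times the level of array 1. The same order, array 1 lowest and array 3 highest, was seen in EXPA1, where arrays 1 and 2 nearly coincided, and more widely spaced in 3 further wall-related genes. MIOX2 (AT2G19800), a myo-inositol oxygenase that feeds wall sugar synthesis, was at 2216 and then at 240.1, 291 and 1029 (-2.41 ± 1.14). PELPK1 (AT5G09530), a proline-rich wall protein gene, went from 6189 to 723, 1081 and 2223 (-2.36 ± 0.82). LAC5 (AT2G40370), a laccase of the family that oxidises lignin precursors, went from 2939.6 to 404, 623 and 1379 (-2.06 ± 0.90). All 7 laccase-named loci at 1000 or more had a mean below the control, with a median difference of -0.50. The fall was not uniform: LAC4, LAC1 and LAC9 were at only -0.08, -0.14 and -0.24. These genes and LAC8 each had a hexenal array above the control. A different order was seen in AGP17 (AT2G23130), an arabinogalactan protein, which went from 13862 to 4433, 3159 and 6448 (-1.63 ± 0.52) with array 2 lowest. GLP8 (AT3G05930), a germin-like protein, was at 1497 and then at 719.5, 589 and 499.6 (-1.33 ± 0.26), lowest in array 3.

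Further members were genes of the surface layers, with regulators, acyl enzymes and lipid transfer proteins. MYB16 (AT5G15310), a MIXTA-like factor of cuticle formation, was at 4847 in the control and at 1070.3, 1019.6 and 1691 (-1.98 ± 0.40). MYB94 (AT3G47600) activates wax synthesis, and it went from 1141 to 547, 360.1 and 374 (-1.44 ± 0.33). DEWAX (AT5G61590), an ERF factor that represses wax synthesis, went from 4423 to 1400.4, 1065 and 1238 (-1.85 ± 0.20). An activator and a repressor of wax genes were therefore both among the members. MYB96, another activator of wax synthesis, was at 0.70, and MYB106, a close relative of MYB16, at -0.54.

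The acyl enzymes of this group had differences from -1.61 to -1.17. FAR1 (AT5G22500), a reductase that makes fatty alcohols for suberin, was at 3453 and then at 1717, 1304 and 1613 (-1.17 ± 0.21). RWP1 (AT5G41040, ASFT), which adds ferulate to suberin monomers, went from 1459 to 328, 596 and 557 (-1.61 ± 0.47). GPAT1 (AT1G06520), a glycerol-3-phosphate acyltransferase, went from 1164 to 573, 351 and 564 (-1.27 ± 0.40). GPAT1 was sorted into this group by hand, and a role of it in the surface layers was not checked. The lipid transfer proteins, small secreted or membrane-anchored carriers, stood apart by their low values in array 1. LTPG5 (AT3G22600) was at 9614 in the control and at 409, 1924 and 3246 (-2.81 ± 1.55). Next to it in the order of genes in the reference lies AT3G22620, also a member, at 8439 and then at 519, 1393 and 3394 (-2.64 ± 1.35), with the same order of arrays. LTP3 (AT5G59320) went from 3086 to 265, 879 and 942 (-2.36 ± 1.03). Of 7 LTP-named loci at 1000 or more LTP3 is the single member, 5 had a mean below the control and the median difference was -0.09, with LTP4 at -1.56 and LTP5 and LTP7 at 0.15 and 0.27. The 3 LTPG-named loci besides LTPG5 were at -0.66, -0.42 and -0.02. Whether LTPG5 and AT3G22620, or LTP3 and LTP4, share probes was not tested.

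Specialised metabolism gave 4 members, 2 of them in 1 short pathway. TPS04 (AT1G61120) encodes geranyllinalool synthase, and CYP82G1 (AT3G25180) the cytochrome P450 that turns its product into a volatile homoterpene. TPS04 was at 3100.1 with solvent and at 362, 1026 and 1433 (-1.94 ± 1.04), lowest in array 1. CYP82G1 was at 2228 and then at 968, 912 and 893 (-1.27 ± 0.06), with hexenal arrays that nearly coincided. The 2 genes thus differed in their spread over the hexenal arrays, with an SD of 1.04 for TPS04 and 0.06 for CYP82G1. ELI3-2 (AT4G37990), of the cinnamyl alcohol dehydrogenase family, went from 4839 to 501, 1914 and 1743 (-2.03 ± 1.08), and CYP78A8 (AT1G01190), a cytochrome P450, from 3119.7 to 1021, 1253 and 1301 (-1.40 ± 0.19).

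**Figure D5:**
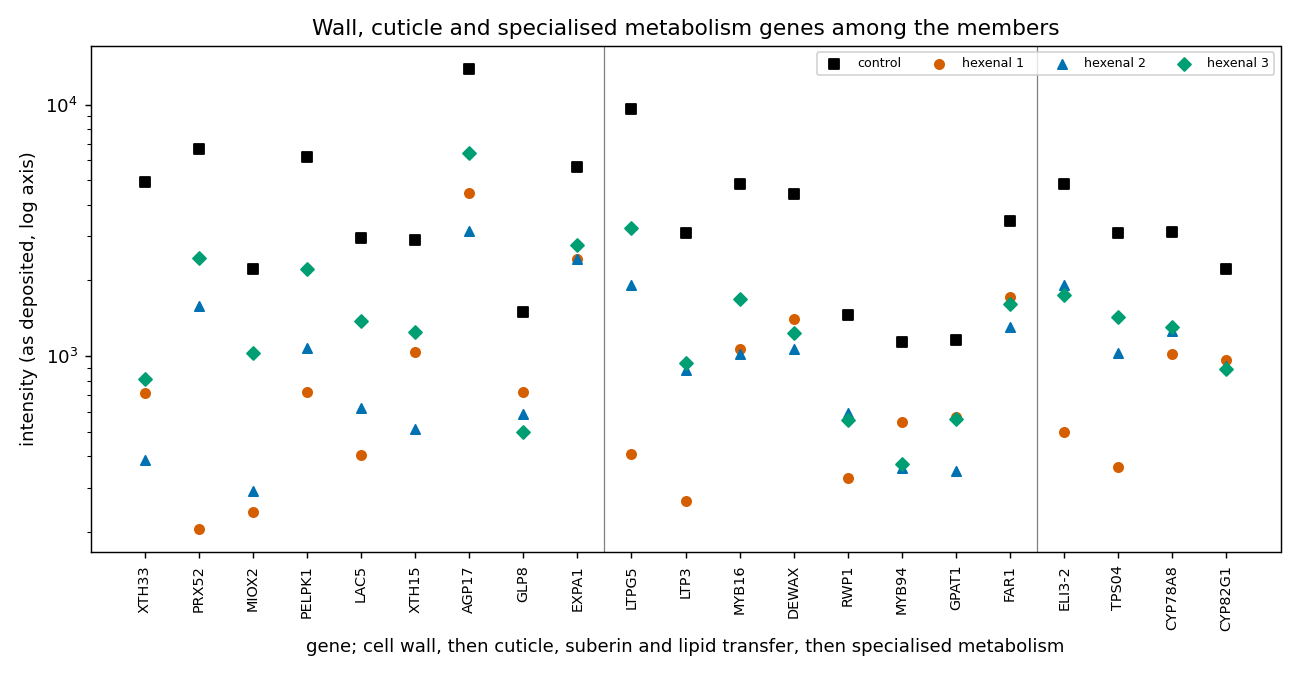
Deposited intensity (y axis, log scale) of the cell wall, surface layer and specialised metabolism genes among the members (x axis, 21 genes), with black squares for the control array and coloured symbols for the 3 hexenal arrays. PRX52, LTPG5, LTP3, ELI3-2 and TPS04 are much lower in hexenal array 1 than in arrays 2 and 3, while EXPA1 and CYP82G1 have close hexenal values.

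Over all 106 members, array 1 was the lowest hexenal array in 28 (26.4%), array 2 in 46 (43.4%) and array 3 in 32 (30.2%). Over all loci at 1000 or more these shares were 29.0%, 29.4% and 41.6%. The highest hexenal value was more than 2 times the lowest in 27 members, and array 1 was the lowest in 12 of them. Above 4 times, array 1 was the lowest in 4 of 5, namely PRX52, LTPG5, AT3G22620 and MIOX2, and the exception was AT5G12050, lowest in array 2. By role group, array 1 was lowest in 5 of 9 wall genes, where EXPA1 counts by a margin of 2431 against 2433, and in 3 of 4 genes of specialised metabolism. Array 2 was lowest in 5 of 10 auxin genes, 4 of 5 cytokinin genes and 5 of 8 genes of the surface layers, and array 3 in 6 of 8 receptor and signalling genes. These counts are small, and differences between the groups were not tested. Organ markers also differed between arrays. The summed intensity of 6 genes used as root markers was 11945 in the control and 15239, 14780 and 10582 after hexenal. How specific these 6 genes are to roots was not checked. Most of that sum came from SCR, at 4930 in the control and at 5879, 5511 and 3716, and RPK2, at 5327 and then 8305, 8025 and 5924. The other markers did not follow the sum: SHR was at 765 in the control and at 644, 565 and 493, and RHD2, the root hair oxidase, at 705 and then 233, 404 and 257. PLT1 and PLT2 were at 144 and 74.4 in the control and were above it in array 2 and below it in arrays 1 and 3. Of 5 floral markers the sum was 364 in the control and 753, 335 and 343 after hexenal. The higher sum in array 1 came mostly from AP1, at 83.6 in the control and 308 in array 1, and AP3, at 72.3 and 149. In the control all 5 floral markers, like PLT1 and PLT2, were below the lower quartile of the array, 205. The part of organ content in the members' values was not tested.

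Receptors and signalling proteins made up 8 members. MAKR6, a membrane-associated kinase regulator gene, was at 2552 in the control and at 473, 276 and 309 (-2.90 ± 0.41). TMM (AT1G80080), a receptor-like protein that spaces stomata, went from 1359 to 533, 593 and 289 (-1.59 ± 0.56), and CRK42 (AT5G40380), a cysteine-rich receptor-like kinase gene, from 3927 to 1411, 1309 and 846 (-1.76 ± 0.40). In both of them array 3 was lowest. SKM2 (AT5G56040), a receptor kinase gene, was at 7491 and then at 3477, 3375 and 3364 (-1.14 ± 0.03), one of the tightest sets. APD7 (AT5G02760) is a PP2C phosphatase of clade D, a class that SAUR proteins inhibit. It went from 4402 to 1458, 1024 and 726 (-2.10 ± 0.50), while 2 of the 6 clade D loci at 1000 or more, AT4G33920 (1.28) and AT5G06750 (1.43), were doubled. BRG2 (AT1G79110) and BRG3 (AT3G12920) encode RING proteins related to BOI, a ubiquitin ligase that limits cell death. BRG3 went from 2207 to 828, 609 and 310.3 (-2.03 ± 0.72) and BRG2 from 3107 to 1489, 1318 and 1156 (-1.24 ± 0.18). KLCR2 (AT3G27960), a kinesin light chain-related protein gene, was at 8003 and then at 3751, 3197 and 3757 (-1.17 ± 0.13).

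A further 11 transcription factors and chromatin regulators were members, with differences from -1.93 to -1.16. LATE (AT5G48890), a zinc finger repressor of flowering, was at 1017 in the control and at 220.0, 308 and 283 (-1.93 ± 0.25). HAM1 (AT2G45160), a GRAS factor that maintains the shoot meristem, went from 1903 to 652, 760.1 and 419 (-1.68 ± 0.45). ULT1 (AT4G28190), a SAND-domain regulator of floral meristem size, went from 5204 to 2328, 2466 and 2197 (-1.16 ± 0.08) and had close hexenal values. MYB59 (AT5G59780) and ABR1 (AT5G64750), an AP2/ERF repressor of abscisate responses, were lowest in array 3. MYB59 had 2767 in the control and 1361, 1069 and 491 (-1.63 ± 0.77), and ABR1 had 2088 and 909.9, 830.5 and 427 (-1.61 ± 0.60). MYB20 (AT1G66230), linked to secondary walls, was lowest in array 2, at 3126 and then 944, 611 and 1545 (-1.70 ± 0.67). With MYB16 and MYB94, 4 of 29 MYB-named loci at 1000 or more are members, and 2 were doubled, MYB73 (1.32) and MYB77 (2.22). OFP15 (AT2G36050), an OVATE family repressor, went from 3017 to 1005, 1006 and 1128 (-1.53 ± 0.10), and ZFP8 (AT2G41940), a zinc finger factor of trichome formation, from 7305 to 2689.5, 2099 and 2915 (-1.52 ± 0.25). The others were SPL2 (AT5G43270, -1.28 ± 0.24), bHLH071 (AT5G46690, -1.22 ± 0.14) and WRKY60 (AT2G25000, -1.22 ± 0.08).

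Nitrogen and metal genes completed the named members. NRT2.6 (AT3G45060) encodes a nitrate transporter, and WR3 (AT5G50200, NRT3.1) the partner protein that nitrate transporters of the NRT2 family need. NRT2.6 was at 2118 in the control and at 363, 335 and 825 (-2.19 ± 0.72), and WR3 at 2138 and then at 667, 959 and 1038 (-1.29 ± 0.34). Both were highest in array 3 of the hexenal arrays. LBD39 (AT4G37540), a repressor of nitrate-responsive genes, went from 5422 to 1797, 1799.9 and 2617 (-1.41 ± 0.31). ERD5 (AT3G30775), the proline dehydrogenase that breaks down proline, was the second brightest member at 15326 and went to 4999, 5208 and 7109 (-1.43 ± 0.28). MT1C (AT1G07610), a metallothionein, was at 2717 and then at 1093, 470.1 and 1136 (-1.70 ± 0.72), lowest in array 2.

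The 39 members known here by code alone included the largest mean difference and the brightest locus. AT5G12050 was at 4949.7 in the control and at 1074, 200.3 and 670.3 (-3.24 ± 1.25), 9.44-fold lower on average with array 2 far below the others. AT5G57760 was at 1057 and then at 148, 123 and 104 (-3.10 ± 0.25), with every hexenal value under the lower quartile of its array. AT5G62280 was close behind, at 2145 and then 353, 266 and 192 (-3.03 ± 0.44). AT4G16563 was the brightest of the code-only loci with a fall of 4-fold or more, at 12164 and then 2081, 977 and 3597 (-2.65 ± 0.94). AT4G13254, a pseudogene in the reference and the single member that is not protein coding, was at 3106 and then 242, 544 and 820.1 (-2.71 ± 0.89). AT2G34510 had the highest control level of all members, 17446, and 7628, 6506 and 6702 after hexenal (-1.33 ± 0.12). Tight sets were found at AT5G01740, at 5093 and then 1190.4, 1059.8 and 1028 (-2.22 ± 0.11), and at AT4G39780, at 1498 and then 567, 557 and 557 (-1.42 ± 0.01). In all, 9 of the 39 were at least 4-fold lower, and the other 30 were 2.17-fold to 3.85-fold lower.

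Members near each other in the genome were counted without the SAUR clusters that the rule left out. The rule therefore limits the number of close pairs, and no expected number was worked out. In the order of genes in the reference, 4 pairs of members had at most 4 genes between them, and LTPG5 with AT3G22620 was the pair with 0 genes between. At the edge of the rule, the members dimmest in the control were IPT1 (1013), LATE (1017) and WRKY60 (1028). Loci halved in all 3 arrays but just under 1000 were AT1G49200 (981), AT3G57010 (968) and PYL6 (941). The highest hexenal array was at 49.8% of the control in AT1G49470, 49.7% in FAR1 and 49.5% in AT1G66190, just inside the rule. CGA1 (50.03%), TPPH (50.04%) and AT4G14480 (50.2%) were just outside it.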

How the data were processed

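Total RNA of 4 samples was measured on one-colour NimbleGen arrays. Per the labels' protocols, reverse transcription was primed with oligo-dT, and the Cy3 dye was added with random primers. The authors deposited 1 linear intensity per gene model and array, for 30361 loci. The sources used here do not give the steps before that value (background, scaling and probe summary) or a genome build.

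Members were found on the deposited intensity by the rule given at the start. The members, lists and groups were chosen with earlier results of these data known. Log2 differences were taken on deposited values. The limma fit (limma 3.58.1 in R 4.3.3, lmFit and eBayes without trend) used quantile normalized log2 values of all 4 arrays, with 2 residual degrees of freedom, all from the hexenal arrays, and Benjamini-Hochberg adjustment over all loci. It was tested on simulated data. No column of another sample was present (0).

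Symbols came from a RefSeq table of assembly TAIR10.1, used for names and gene order only, where 29976 of 30361 loci and all 106 members matched. Name patterns were written for 16 classes, and those that matched unrelated names were narrowed after results were seen. The member FAR1 was also removed from the light and shade class by hand, with results seen. Families were chosen after values were seen. The naming rule took the 20 largest falls, the 10 brightest members, up to 8 per class, all called members and the loci nearest each threshold. Further members are named because all members are described. Near-identical genes may share probes. Promoter sequences were not analysed here. Alternatives covered scaling, thresholds, the eBayes setting, dim loci, a pseudocount of 16 and leaving out each hexenal array.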

Additional observations from a re-analysis of the deposited data

How the results depend on the processing

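The number of members, 106, was 115 with quantile normalization or median centring, 121 with a control minimum of 500 and 76 with 2000. It was 438 when hexenal values up to 66.7% of the control were allowed, 43 at a ratio of 0.4, and from 133 to 477 when a hexenal array was left out. The 106 are contained in the looser selections (a minimum of 500, 66.7% of the control, an array left out) by construction, and the selections at 2000 and 0.4 are subsets of them by construction, so neither bears on stability. With quantile normalization and with median centring all 106 were among the 115. The array medians were already close, at 941 in the control and 982, 968 and 936 after hexenal. Median centring could therefore remove few members, and its outcome bears little on stability. The count of members in any class, 51, was 129 at 66.7% of the control. The median difference of the 106 members, -1.60, was recomputed with quantile normalization, median centring, cyclic loess scaling and a pseudocount, and without each hexenal array. Under these settings it ran from -1.63 to -1.52, and it moved by less than the spread between arrays. The settings without an array reuse the arrays that set this spread, so they bear little on stability. The median was not recomputed for the other control minima and ratios. Of 742 values of single members under 7 settings, 8 moved by at least the SD of that gene. Leaving out a hexenal array cannot shift a member's mean by as much as that SD. The settings that leave out an array therefore could not add to the 8, and they say nothing about stability by this measure. The rule that chose the members largely fixes their signs.

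In limma, 10 loci and 5 members were called lower. The counts were 55 and 27 with trend and robust eBayes, and 18 and 11 without the dimmest 25% of loci. Leaving out a hexenal array gave 0 to 39 loci and 0 to 20 members. The 0 arose without array 2, where 303 loci had an unadjusted p under 0.05 and were at least 2-fold lower in limma. The causes were not tested. No paired analysis was possible because the 1 control array has no number that ties it to a hexenal array. No detection limit or scanner background was used, so low hexenal values may hold background.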
